A study of Mus musculus with 8 samples.

Results

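Chronic myeloid leukaemia (CML) is kept going by a small pool of leukaemic stem cells, and a set of genes has been reported to sustain or restrain that pool in mouse models. The 8 genes described here are Bcl6, Foxo3, Alox5, Ctnnb1, Smo and Pml, each reported as needed by CML stem cells, and Msr1 and Blk, each reported to hold them back. They were listed by name, with no threshold on the values, though earlier results of these data were known. On the arrays, 7 of the 8 could be followed, through 16 probe sets that the annotation gives to 1 of these symbols only, out of 12393 genes with such a probe set. No probe set of the annotation used here was named for Alox5 alone, so its level was not analysed here.

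The arrays measured total RNA of sorted mouse bone marrow cells in 3 groups on the C57/BL6 background, all labelled 12 weeks old. LSK cells, marrow cells without lineage markers that carry Sca1 and Kit and include the haematopoietic stem cells, came from mice for which no leukaemia or transplantation is given (3 arrays, wild type). Leukaemia-initiating cells (LICs) carried the LSK surface markers and GFP. They were sorted 14 days after bone marrow transplantation in a retroviral CML model, from wild-type leukaemia (WT LICs, 3 arrays) or from leukaemia lacking Ezh2 (Ezh2 KO LICs, 2 arrays). Ezh2 is the enzyme that places the repressive methyl marks of Polycomb repressive complex 2 on histone H3. Both LIC groups therefore share the retroviral oncogene, the transplantation and the GFP gate, which the LSK cells lack, and these cannot be told apart from leukaemia itself. The labels name neither the oncogene nor the driver of the Ezh2 deletion, and do not say whether animals were pooled. The samples are labelled biological repeats.

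The known roles fall into a few circuits. BCL6 is a transcriptional repressor that silences cell cycle arrest and death genes, and FOXO3, which AKT holds outside the nucleus, switches on quiescence genes and can itself induce Bcl6. Beta-catenin (Ctnnb1) carries the canonical Wnt signal and Smoothened (Smo) the Hedgehog signal, both tied to stem cell self-renewal. Alox5 makes leukotrienes, Msr1 is a macrophage scavenger receptor, Blk is a Src family kinase of B cells, and PML builds nuclear bodies that arsenic disperses.

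Levels below are log2 of the deposited intensity. A gene was called where limma gave a Benjamini-Hochberg adjusted p under 0.05 over all 12393 genes, and background was set at 4.01, the mean of the brightest bacterial control probe set for which no RNA had been added. The targeted gene was lower in knockout LICs, as labelled, but its single probe set stayed above background on all 8 arrays. The reason was not tested. Ezh2 stood at 10.77, 10.95 and 11.07 in LSK cells, 11.33, 11.44 and 11.26 in WT LICs, and 8.94 and 9.55 in Ezh2 KO LICs. Both knockout arrays were below every other array, and the difference from WT LICs was -2.10 (adjusted p = 0.00985). That call was lost when only the WT and knockout LICs were fitted (adjusted p = 0.055). The third WT LIC array stood apart from the rest of its group. Its correlation across genes with the other WT LIC arrays was 0.971 and 0.973, against 0.988 between those 2. Its summed intensity of erythroid markers was 157 against 3032 and 1789. That sum was 473 to 558 in LSK cells and 383 to 541 in knockout LICs. By it the first 2 WT LIC arrays, and not the third, lay farthest from the other groups. Genes are not independent replicates, so these correlations are a description. No array date or batch is given, so a batch cannot be told apart from group.

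None of the 7 measured genes was called in any of the 3 comparisons. For WT LICs against LSK cells this stands beside 3.42% of all genes called, for Ezh2 KO LICs against WT LICs beside 0.637%, and for Ezh2 KO LICs against LSK cells beside 3.47%. At an unadjusted p under 0.05 the numbers of the 7 were 2, 0 and 1, where all genes gave 2547, 1380 and 2382 (20.6%, 11.1% and 19.2%). The arrays of the groups did not overlap for 2, 2 and 3 of the 7, beside a background of 26.7%, 29.8% and 38.7% of all genes. From LSK cells to WT LICs 6 differences were negative and 1 was positive, with a median of -0.25 where all genes had a median of 0.02. For knockout against WT LICs 2 were negative and 5 positive, with a median of 0.12 beside -0.05 for all genes. For knockout LICs against LSK cells 4 were negative and 3 positive, with a median of -0.18 beside -0.02.

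**Figure D1:**
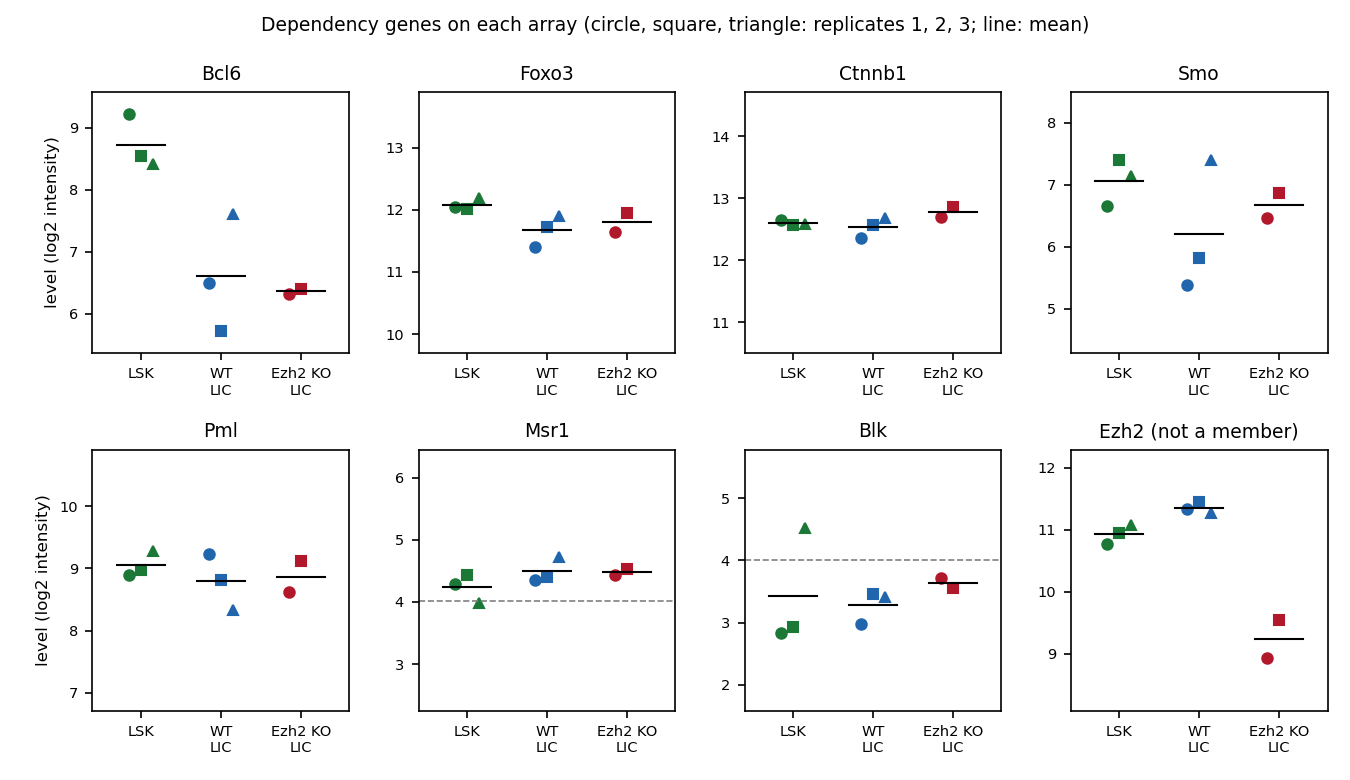
Level of each measured gene, and of Ezh2, on every array (vertical axis, log2 intensity, each panel spanning the same number of log2 units; horizontal axis, group). Each point is 1 array, the line is the group mean and the dashed line is the background of 4.01; the LSK arrays of Bcl6 lie above all LIC arrays, while Blk lies under the background on all arrays but 1.

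Bcl6, the repressor, had the widest range of the 7 genes. Its level was 9.22, 8.54 and 8.41 in LSK cells, 6.49, 5.73 and 7.61 in WT LICs, and 6.32 and 6.41 in Ezh2 KO LICs. Every LIC array lay below every LSK array, and the knockout arrays lay inside the range of the WT LICs. The group means were 8.72 ± 0.43 (SD, n = 3), 6.61 ± 0.94 (n = 3) and 6.36 ± 0.06 (n = 2). WT LICs were thus 2.11 log2 units under LSK cells, a 4.32-fold difference, with a standard error of 0.45 and a 95% interval from -3.17 to -1.05. The adjusted p of 0.0528 missed the threshold. By unadjusted p, Bcl6 ranked 465 among all genes in that comparison. Knockout LICs were 2.36 log2 units under LSK cells, a 5.12-fold difference with an interval from -3.54 to -1.17 (adjusted p = 0.053). Knockout and WT LICs differed by -0.25, with an interval from -1.43 to 0.94 (adjusted p = 0.892).

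The third WT LIC array, which stood apart from the rest of its group, was also the WT LIC array with the most Bcl6. Without it the difference from LSK cells was -2.61 and Bcl6 was called (adjusted p = 0.0102). Leaving out any other array kept the sign and gave no call. Over 15 alternative settings the difference from LSK cells lay between -2.61 and -1.17 and the adjusted p between 0.0102 and 0.15, with 4 calls. The other calls came with dim genes removed (0.0369), a trended robust prior (0.035) and array weights (0.0166). The smallest difference came from averaging the gene's probe sets. The second Bcl6 probe set was dim, with a mean of 4.35 near background, and differed by -0.22.

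Bcl6 is known to be bound by STAT5, which BCR-ABL activates, and Stat5b is given further on among related genes. For that reason its start regions are shown. RefSeq (GRCm38.p6) gives 2 start windows of 300 bases, 250 before and 50 after the start, both on the minus strand, and the letters TTCNNNGAA of the STAT motif, searched on both strands, are in capitals.
Bcl6, chr16:23988803-23989102 (-): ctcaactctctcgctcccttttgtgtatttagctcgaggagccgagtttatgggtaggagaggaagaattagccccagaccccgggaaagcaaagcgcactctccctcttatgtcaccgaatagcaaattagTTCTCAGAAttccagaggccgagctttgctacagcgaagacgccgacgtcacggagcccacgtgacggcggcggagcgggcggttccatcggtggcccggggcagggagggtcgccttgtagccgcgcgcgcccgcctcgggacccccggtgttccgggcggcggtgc
Bcl6, chr16:23981234-23981533 (-): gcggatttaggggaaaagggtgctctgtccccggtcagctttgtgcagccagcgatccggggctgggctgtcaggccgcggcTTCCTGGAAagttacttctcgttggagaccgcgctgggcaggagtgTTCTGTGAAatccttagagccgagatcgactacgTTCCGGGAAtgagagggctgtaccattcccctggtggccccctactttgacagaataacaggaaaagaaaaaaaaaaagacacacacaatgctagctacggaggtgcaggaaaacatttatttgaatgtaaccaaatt
The first window holds TTCTCAGAA, with 109 bases between it and the start. The second holds TTCCTGGAA, TTCTGTGAA and TTCCGGGAA. Of 32851 such windows 8.3% hold at least 1 match, and the windows of Foxo3, Alox5, Ctnnb1, Smo and Pml do not. These matches are a description of letters, not of binding.

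BCL6 partners and reported targets were measured for 17 of 23 listed genes. From LSK cells to WT LICs 1 was higher, none lower and 16 not called, where 3.42% of all genes were called. The 17 had a median difference of -0.11. The gene called was Cdkn1a, a cyclin-dependent kinase inhibitor that arrests the cycle and that BCL6 is known to repress. Cdkn1a stood at 6.06, 6.005 and 6.91 in LSK cells, 8.63, 8.63 and 9.17 in WT LICs, and 10.51 and 9.83 in knockout LICs, so the 3 groups did not overlap. It rose 5.61-fold in WT LICs (log2 difference 2.49, SE 0.31, adjusted p = 0.00979) and was called under all 15 alternative settings. Its second probe set differed by 1.44. Between knockout and WT LICs none of the 17 was called and the median was 0.16. The smallest p-values there belonged to Cdkn2a, which encodes cell cycle inhibitors of the RB and p53 routes and is a textbook target of Ezh2, and again to Cdkn1a. Cdkn2a was at 3.94, 4.51 and 2.40 in WT LICs and 8.46 and 6.69 in knockout LICs, at least 11.8-fold higher when the WT mean, which is under background, is set to background (adjusted p = 0.0707). Cdkn1a differed by 1.36 (adjusted p = 0.205). Against LSK cells, knockout LICs had 2 of the 17 called, both higher, beside 3.47% of all genes called. These were Cdkn1a, by 3.85 (adjusted p = 0.00317), and Cdkn2a (adjusted p = 0.0157). Cdkn1a was called under all 14 alternatives there, and Cdkn2a lost its call without the third LSK array (0.0502) or the first knockout array (0.0755).

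BCL6 is also a regulator of B cells and macrophages, so markers of those cells are given beside it. In bulk samples, fewer cells of a type and less RNA per cell cannot be told apart. Of 14 listed B-lineage markers 12 were measured, and Cd22, Ms4a1 and Pax5 had no group mean above background. The summed intensity of the 12 was 961 to 1451 in LSK cells, 480 to 972 in WT LICs and 5491 to 8512 in knockout LICs. That of 7 of 8 antibody-secreting cell markers was 3452 to 4862, 1241 to 1521 and 1435 to 1889. That of 13 of 14 monocyte and macrophage markers was 4390 to 5080, 1226 to 2456 and 1902 to 2260, with no group mean of Itgam or Ms4a7 above background. The last 2 sums were higher on every LSK array than on every LIC array, and their part in the Bcl6 difference was not tested. Most monocyte and macrophage markers did not follow their sum. The 13 had a median difference from LSK cells of -0.12 in WT LICs and 0.09 in knockout LICs. In each 1 was called lower, beside 3.42% and 3.47% of all genes called. The B-lineage sum was highest in knockout LICs, and its part in the Bcl6 levels was not tested. Against WT LICs 5 of the 12 B-lineage markers were called higher in knockout LICs, beside 0.637% of all genes called. The 9 measured of 11 LSK-defining markers summed to 13119 to 13815, 9419 to 11706 and 10603 to 11626, with no group mean of Mecom above background. They did not all move the same way. Against LSK cells 1 was called higher and 2 lower in WT LICs, beside 3.42% of all genes called. In knockout LICs 1 was called higher and 1 lower, beside 3.47%.

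**Figure D2:**
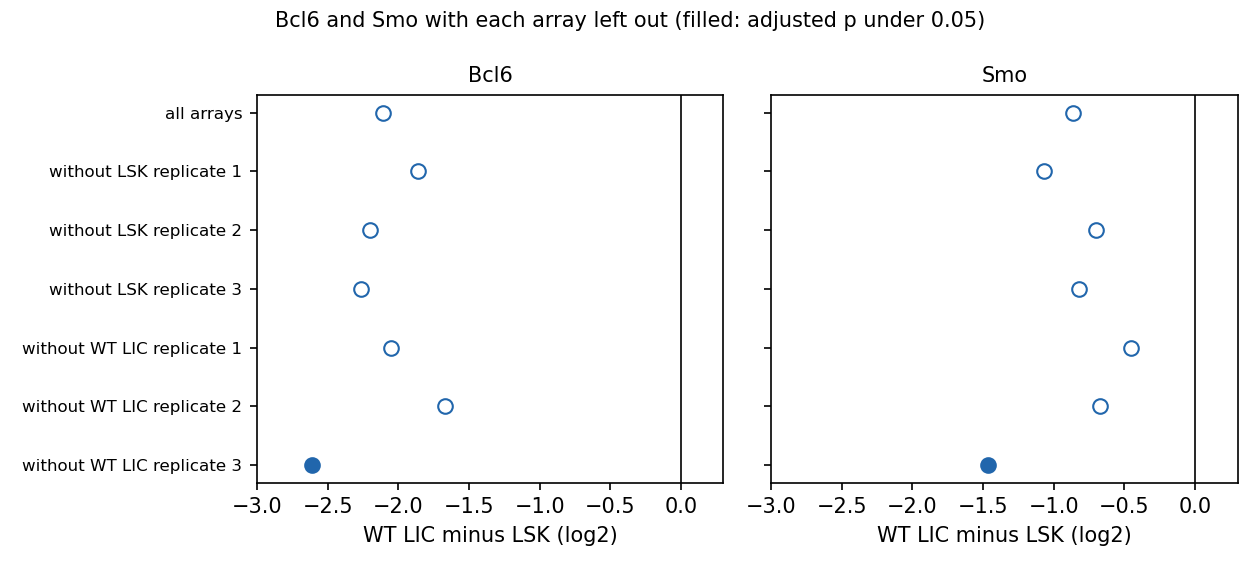
Difference of WT LICs from LSK cells for Bcl6 and Smo (horizontal axis, log2) with all arrays and with each array of these groups left out in turn (vertical axis); filled points have an adjusted p under 0.05. Both genes are filled only where the third WT LIC array is left out, at -2.61 for Bcl6 and -1.47 for Smo.

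The genes whose pattern over the 8 arrays lay closest to that of Bcl6, by the root mean square difference after each gene was centred on its own mean, were Arid5b (0.35), Myl6 (0.38) and Vldlr (0.38), where the median over 6587 genes was 1.23. Arid5b stood at 7.78, 7.33 and 7.80 in LSK cells, 6.09, 4.87 and 6.66 in WT LICs, and 5.51 and 6.03 in knockout LICs. Vldlr, a lipoprotein receptor, stood at 10.43, 10.10 and 9.46, then 7.78, 6.998 and 9.74, then 8.33 and 8.29. As for Bcl6, the third WT LIC array was the highest of its group for Arid5b, Myl6 and Vldlr. For Myl6 and Vldlr it lay inside the LSK range. The likeness is a description over arrays of 3 groups and carries no test.

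Foxo3, the AKT-controlled transcription factor, stood at 12.05, 12.01 and 12.20 in LSK cells, 11.40, 11.72 and 11.90 in WT LICs, and 11.64 and 11.95 in knockout LICs. All LIC arrays lay under all LSK arrays by a small margin, and the LIC groups overlapped. WT LICs differed from LSK cells by -0.41, with an interval from -0.82 to -0.0038, an unadjusted p of 0.0484 and an adjusted p of 0.239. A second bright Foxo3 probe set differed by -0.49, and another, dim at a mean of 4.92, by 0.12. Knockout LICs differed from WT LICs by 0.12 (interval -0.33 to 0.58, adjusted p = 0.851) and from LSK cells by -0.29 (adjusted p = 0.48).

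FOXO family members and target genes were measured for 28 of 30 listed. From LSK cells to WT LICs 4 fell, none rose and 24 were not called, with a median of -0.22 beside 0.02 for all genes. Over all genes 3.42% were called there, 157 higher and 267 lower. The 4 are named because they were called, and no shared role among them was tested. Cdkn1b, a cyclin-dependent kinase inhibitor and a classical FOXO target, went from 10.003, 9.89 and 10.19 to 8.21, 8.46 and 9.04 (difference -1.46, adjusted p = 0.0206). Txnip, an inhibitor of thioredoxin and of glucose uptake, went from 12.54, 11.90 and 12.21 to 10.77, 11.17 and 10.91 (-1.27, adjusted p = 0.0221). Sesn3, which restrains mTORC1, went from 9.26, 8.71 and 9.22 to 6.87, 7.57 and 8.002 (-1.58, adjusted p = 0.0443). In each of these genes all WT LIC arrays lay under all LSK arrays, and the knockout arrays of Sesn3, at 7.65 and 8.20, lay inside or just above the WT LIC range. Tgfbr2, the type II TGF-beta receptor, went from 9.51, 9.58 and 9.65 to 8.20, 8.36 and 8.77 (-1.13, adjusted p = 0.0219).

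Second probe sets of Cdkn1b and Txnip were lower too, by 0.86 and 1.74 log2 units, while the other Tgfbr2 probe sets were dim and differed by 0.39 and -0.51. With the mean of its 3 probe sets Tgfbr2 differed by -0.42 and was not called (adjusted p = 0.192). Sesn3 also lost its call with median centring (adjusted p = 0.0537) and with only the 2 groups fitted (0.0626). The calls of Cdkn1b and Tgfbr2 were lost without any 1 of the LSK arrays or of the first 2 WT LIC arrays, with adjusted p up to 0.0733 and 0.0814. Txnip lost its call without the first LSK array, the third LSK array or the first WT LIC array (up to 0.0769), and Sesn3 lost its call when any array of these groups other than the third WT LIC array was left out (up to 0.126). No sign changed. Between knockout and WT LICs none of the 28 was called, the median was 0.16, and the smallest p-values were those of Klf6 (1.41, adjusted p = 0.134) and Bbc3 (0.65, adjusted p = 0.352). Klf6 is a zinc finger transcription factor and Bbc3 a BH3-only death gene. Knockout LICs against LSK cells gave Fbxo32 lower by 2.17 log2 units (adjusted p = 0.0327) and Sgk1 higher by 1.89 (adjusted p = 0.0354). Over all genes 3.47% were called in that comparison. Fbxo32 is a ubiquitin ligase gene and a known FOXO target and Sgk1 a kinase that can inactivate FOXO3. Fbxo32 lost its call without the first or second LSK array or either knockout array (adjusted p up to 0.159), and Sgk1 without the first LSK array, the third LSK array or either knockout array (up to 0.155). The 2 comparisons with LSK cells share the LSK arrays.

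The start windows of Cdkn1b, Tgfbr2, Txnip and Sesn3 were searched for the FOXO letters TTGTTTAC on either strand, which 1.23% of all windows hold, and that of Txnip holds them. That window is shown with the match in capitals, here as GTAAACAA on the plus strand.
Txnip, chr3:96557707-96558006 (+): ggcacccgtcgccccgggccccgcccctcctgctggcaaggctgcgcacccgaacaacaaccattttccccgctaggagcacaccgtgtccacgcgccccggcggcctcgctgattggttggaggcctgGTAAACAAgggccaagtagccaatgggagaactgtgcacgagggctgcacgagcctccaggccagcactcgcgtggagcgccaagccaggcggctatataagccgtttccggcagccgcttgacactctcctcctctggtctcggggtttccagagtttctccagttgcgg
The windows of Cdkn1b, Sesn3 and Tgfbr2 do not hold these letters. Among the windows of Bcl6, Foxo3, Alox5, Ctnnb1, Smo and Pml, that of Pml has 1 match.

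**Figure D3:**
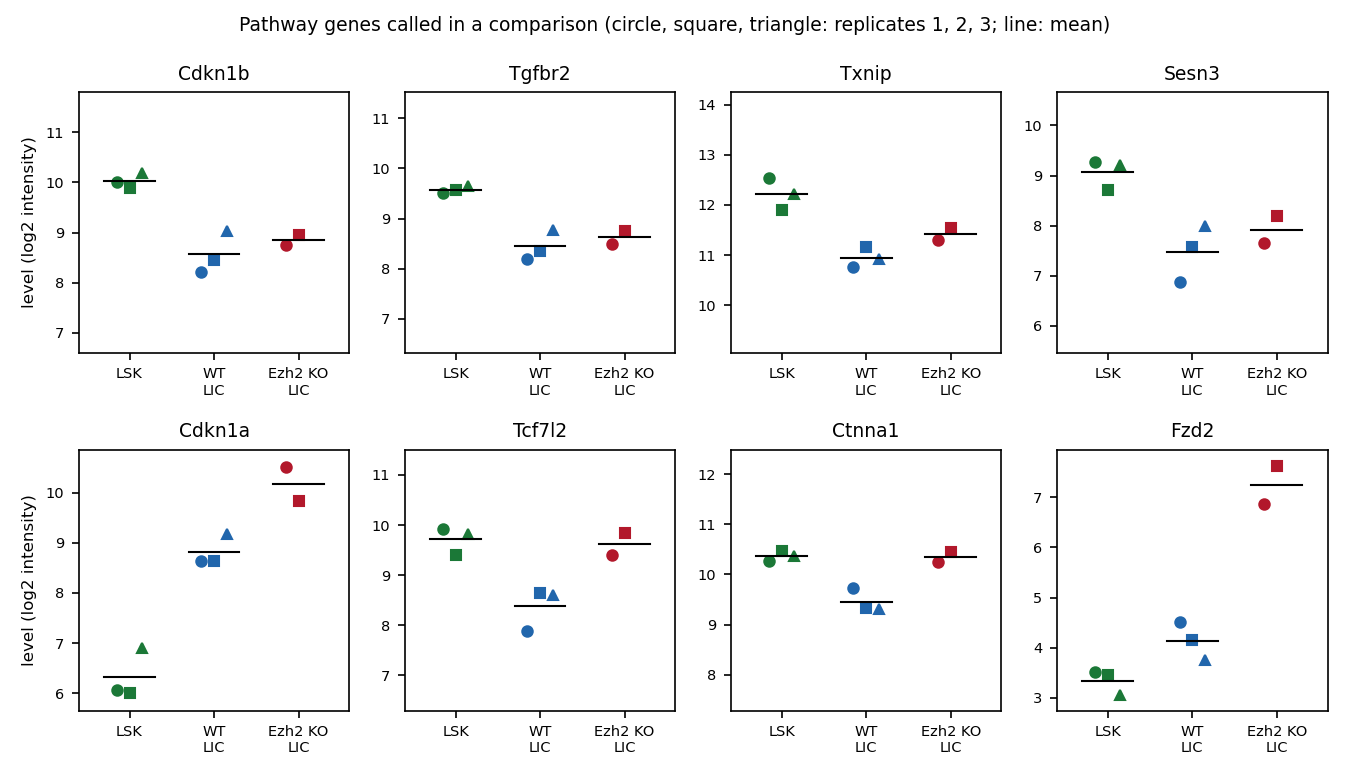
Level of 8 pathway genes on every array (vertical axis, log2 intensity; horizontal axis, group; each point is 1 array and the line the group mean). Cdkn1b, Tgfbr2, Txnip and Sesn3 are lower in WT LICs than in LSK cells and Cdkn1a is higher, Tcf7l2 and Ctnna1 are lower in WT LICs with knockout arrays near the LSK arrays, and Fzd2 is highest in knockout LICs.

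Ctnnb1, which encodes beta-catenin, was nearly level. Its brightest probe set gave 12.65, 12.56 and 12.59 in LSK cells, 12.37, 12.57 and 12.68 in WT LICs, and 12.70 and 12.86 in knockout LICs. The LSK arrays lay inside the WT LIC range, and the knockout arrays lay above all others. WT LICs differed from LSK cells by -0.06, with an interval from -0.38 to 0.26, and the sign turned when arrays were centred on their medians (0.05). Knockout LICs differed from WT LICs by 0.24 (interval -0.11 to 0.60, adjusted p = 0.596) and from LSK cells by 0.18 (adjusted p = 0.583). The other 2 probe sets gave 0.25 and 0.24 for knockout against WT LICs. A protein held back or released by degradation, as beta-catenin is, need not follow its transcript.

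Of 46 listed Wnt and beta-catenin genes 43 were measured. In WT LICs against LSK cells 3 fell, none rose and 40 were not called (median -0.10), beside 3.42% of all genes called. Tcf7l2, a DNA-binding partner of beta-catenin, went from 9.92, 9.40 and 9.83 to 7.88, 8.65 and 8.60 (difference -1.34, adjusted p = 0.0407), and all 4 of its probe sets were lower. Ctnna1, alpha-catenin, which ties cadherin complexes to actin, went from 10.27, 10.47 and 10.38 to 9.72, 9.33 and 9.30 (-0.92, adjusted p = 0.0301). The knockout arrays of both genes lay back in the LSK range or close to it, at 9.39 and 9.85 for Tcf7l2 and 10.26 and 10.45 for Ctnna1. Their differences from WT LICs, 1.25 (adjusted p = 0.173) and 0.91 (adjusted p = 0.117), were not called. Fzd8, a Wnt receptor, was at 6.03, 4.72 and 4.08 in LSK cells and under background in all LICs, at least 1.91-fold lower in WT LICs (adjusted p = 0.0493).

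With the mean of all probe sets neither Tcf7l2 (-0.98, adjusted p = 0.103) nor Ctnna1 (-0.62, adjusted p = 0.0663) was called, and with median centring neither Tcf7l2 (0.053) nor Fzd8 (0.0521) was. Tcf7l2 stayed called in the leave-one-out fits only without the third WT LIC array (adjusted p up to 0.12 otherwise). Ctnna1 lost its call without any 1 LSK array or the second WT LIC array (up to 0.103), and Fzd8 without the second LSK array or any 1 WT LIC array (up to 0.133). Between knockout and WT LICs 0.637% of all genes were called. Of the Wnt genes 1 rose, none fell and 42 were not called, with a median of 0.23 beside -0.05 for all genes. It was Fzd2, another Wnt receptor, at 4.51, 4.16 and 3.75 in WT LICs and 6.87 and 7.63 in knockout LICs (3.11, adjusted p = 0.00985). Its other 2 probe sets were near or under background and differed by 0.41 and 0.07. Averaging the 3 gave 1.196. Fitting only the 2 LIC groups gave an adjusted p of 0.0549. For knockout LICs against LSK cells 3.47% of all genes were called. Of the Wnt genes Fzd2 was called higher and Lrp5, a Wnt co-receptor, lower by 1.30 log2 units (adjusted p = 0.0269). Lrp5 lost that call without any 1 array of either group (up to 0.139).

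Smo, the Hedgehog signal transducer, stood at 6.65, 7.39 and 7.14 in LSK cells, 5.38, 5.81 and 7.40 in WT LICs, and 6.46 and 6.87 in knockout LICs. The first 2 WT LIC arrays were the lowest of all and the third was the highest of all, so the groups overlapped. WT LICs differed from LSK cells by -0.86, with an interval from -2.03 to 0.30 (adjusted p = 0.38). Without the third WT LIC array the difference was -1.47 and was called (adjusted p = 0.0347), while without the first it was -0.46 (adjusted p = 0.687). A second Smo probe set had the same layout, at 3.88, 3.70 and 6.14 in WT LICs and 4.53, 5.41 and 5.33 in LSK cells. Knockout LICs differed from WT LICs by 0.47 (interval -0.83 to 1.77, adjusted p = 0.795).

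Of 26 Hedgehog genes 21 were measured and 11 of those were above background in at least 1 group. None was called in any comparison, and the medians were -0.07, -0.00084 and -0.04. At an unadjusted p under 0.05 there were 2, 1 and 2, beside 20.6%, 11.1% and 19.2% of all genes. The smallest p-values belonged to Ift88, a ciliary transport gene (-0.79, adjusted p = 0.11), and Boc, a Hedgehog co-receptor (-1.30, adjusted p = 0.233), for WT LICs against LSK cells. For knockout against WT LICs they belonged to Ccnd1, cyclin D1 (1.02, adjusted p = 0.354), and Gli3, which was under background in both groups. With probe sets averaged, Boc differed by -0.38 between WT LICs and LSK cells (adjusted p = 0.458). Ccnd1 then differed by 0.58 between knockout and WT LICs (adjusted p = 0.669).

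Pml, the organiser of nuclear bodies, stood at 8.89, 8.98 and 9.29 in LSK cells, 9.24, 8.81 and 8.34 in WT LICs, and 8.62 and 9.12 in knockout LICs. All 3 groups overlapped, and it had a single probe set. The differences were -0.25 (interval -0.86 to 0.36) for WT LICs against LSK cells and 0.07 (interval -0.61 to 0.75) for knockout against WT LICs. Of 25 listed nuclear body genes 19 were measured, and none was called in any comparison. Their median was -0.22 in WT LICs against LSK cells, beside 0.02 for all genes, and 9 of the 19 had an unadjusted p under 0.05 there, beside 20.6% of all genes. Hipk1, a kinase found in these bodies, went from 11.07, 10.98 and 10.88 to 10.43, 10.47 and 10.22 (-0.61, adjusted p = 0.0564). Mdm2, the p53 ubiquitin ligase, went from 11.15, 11.04 and 10.96 to 10.50, 10.62 and 10.49 (-0.52, adjusted p = 0.0702). For both the LSK and WT LIC arrays did not overlap. With the probe sets of each gene averaged, Hipk1 differed by -0.22 (adjusted p = 0.821) and Mdm2 by -0.72 (adjusted p = 0.222). In knockout LICs Mdm2 was at 11.08 and 11.13, 0.57 above WT LICs (adjusted p = 0.186), and Sumo3, a modifier that PML carries, was 0.36 above (adjusted p = 0.375). Averaging probe sets gave 0.54 for Mdm2 (adjusted p = 0.606) and 0.18 for Sumo3 (adjusted p = 0.732) there.

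Alox5 was not followed itself, but the leukotriene route around it was, with 15 of 18 listed genes measured. None was called for WT LICs against LSK cells or for knockout against WT LICs, with medians of 0.07 and -0.09. Over all genes 3.42% and 0.637% were called there, and 3.47% for knockout LICs against LSK cells. Alox5ap, which encodes the membrane protein that presents arachidonic acid to the Alox5 enzyme, stood at 11.34, 11.39 and 11.19 in LSK cells, 10.73, 10.52 and 10.66 in WT LICs, and 10.56 and 10.22 in knockout LICs. All LIC arrays lay below all LSK arrays. The difference was -0.67 for WT LICs (adjusted p = 0.0577) and -0.92 for knockout LICs, which was called (adjusted p = 0.0334) but lost its call without any 1 array of these groups (up to 0.163). Lta4h, which turns leukotriene A4 into B4, differed by 0.67 in WT LICs (adjusted p = 0.0526), but by -0.09 when its 3 probe sets were averaged. In knockout against WT LICs the smallest p-values were those of the cyclooxygenase gene Ptgs2, at 6.10 and 8.23 against 4.19, 4.43 and 2.68 (adjusted p = 0.173), and of Mgst2, which can make leukotriene C4 (0.97, adjusted p = 0.284). Averaging its probe sets brought the Ptgs2 difference from 3.40 to 1.72 (adjusted p = 0.218).

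Msr1 and Blk, the genes reported to restrain CML stem cells, were near or under background, so these arrays limit what can be said of them. The brightest of 4 Msr1 probe sets was above 4.01 on 7 of 8 arrays, at 4.29, 4.44 and 3.98 in LSK cells, 4.36, 4.40 and 4.72 in WT LICs, and 4.43 and 4.54 in knockout LICs. The groups overlapped, and WT LICs differed from LSK cells by 0.26 (interval -0.15 to 0.66, adjusted p = 0.453). The difference of knockout from WT LICs was -0.01 and changed sign under 4 of 13 alternatives. Of the other probe sets 1 passed background on a single array, the first knockout array, at 4.40, and the others on none. Of 18 scavenger receptor genes 16 were measured and none was called between WT LICs and LSK cells. The smallest p-values there were those of Scarb1, the HDL receptor (0.74, adjusted p = 0.0839), and Cxcl16 (0.98, adjusted p = 0.0938). Averaging probe sets gave 0.64 for Scarb1 (adjusted p = 0.0709) and 0.60 for Cxcl16 (adjusted p = 0.243). Between knockout and WT LICs 1 of the 16 rose and none fell, beside 0.637% of all genes called. It was Scara3, at 4.68 and 4.44 against 1.97, 1.75 and 1.498 in WT LICs, at least 1.47-fold higher (adjusted p = 0.00985).

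Blk had 1 probe set, at 2.84, 2.93 and 4.53 in LSK cells, 2.97, 3.46 and 3.41 in WT LICs, and 3.71 and 3.55 in knockout LICs. It passed background on the third LSK array only, so no fold is given. The B-lineage markers that were highest in knockout LICs included Igll1, a surrogate light chain gene, which was 5.23 above WT LICs (adjusted p = 0.00753), and Blk stayed under background on both of those arrays. Of 18 Src family kinases and regulators 14 were measured. In WT LICs against LSK cells 1 fell, beside 3.42% of all genes called. It was Cdkn1b, which this list shares with the FOXO list. Cdkn1b encodes a cell cycle inhibitor and not a kinase. Between knockout and WT LICs none was called, with a median of 0.31 beside -0.05 for all genes, and 7 of 14 at an unadjusted p under 0.05 beside 11.1% of all genes. Fyn was at 9.38, 9.94 and 9.07 in WT LICs and 10.67 and 10.90 in knockout LICs (1.31, adjusted p = 0.0999). Yes1 was at 3.36, 5.88 and 2.07 in WT LICs and 7.31 and 8.19 in knockout LICs (adjusted p = 0.177). LSK cells had Fyn at 10.10, 10.06 and 10.17 and Yes1 at 7.20, 6.93 and 7.05. For both genes the WT LIC arrays were thus below all LSK and knockout arrays. Without the second WT LIC array both were called between knockout and WT LICs, with adjusted p of 0.0452 for Fyn and 0.0231 for Yes1. With the probe sets of each gene averaged, neither was called there. Fyn then differed by 0.68 (adjusted p = 0.296) and Yes1 by 3.15 (adjusted p = 0.0733).

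**Figure D4:**
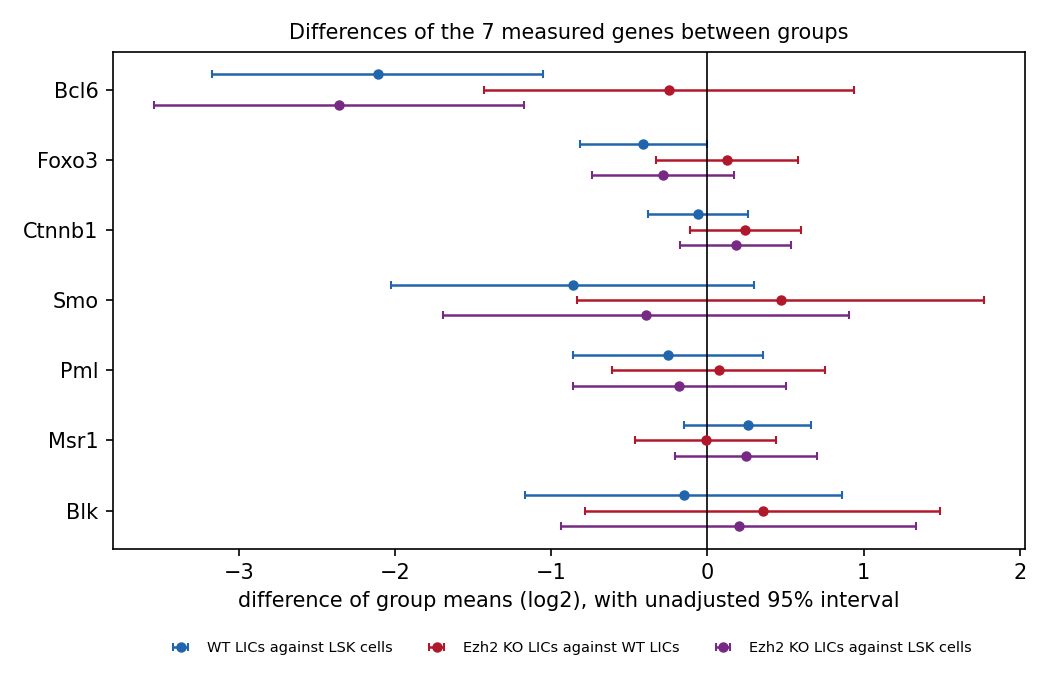
Difference of group means for each of the 7 measured genes in the 3 comparisons (horizontal axis, log2; bars, unadjusted 95% intervals; vertical axis, gene). The intervals of Bcl6 against LSK cells lie wholly below 0, that of Foxo3 in WT LICs ends at -0.0038, and every interval of knockout against WT LICs spans 0.

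Other genes reported as dependencies of CML stem cells were measured for 31 of 33 listed. None was called for WT LICs against LSK cells, beside 3.42% of all genes called, with a median of -0.11. The smallest p-values there were those of Stat5b, a signal transducer downstream of the CML oncogene (-0.75, adjusted p = 0.0782), and Hoxa9, a homeobox gene of stem and progenitor cells (-0.997, adjusted p = 0.0828). With the probe sets of each gene averaged, Stat5b differed by -0.36 (adjusted p = 0.485) and Hoxa9 by -0.79 (adjusted p = 0.118). Hoxa9 was at 10.76, 10.74 and 10.88 in LSK cells and 9.55, 9.47 and 10.37 in WT LICs, and was called without the third WT LIC array (adjusted p = 0.014). Between knockout and WT LICs Ezh2, the targeted gene, fell and Bmi1 rose, beside 0.637% of all genes called. Bmi1, a core protein of Polycomb repressive complex 1 that sustains stem cell self-renewal, was at 10.59, 10.51 and 10.54 in LSK cells, 10.31, 10.49 and 10.14 in WT LICs, and 11.52 and 11.70 in knockout LICs. Both knockout arrays were above all others, by a difference of 1.30 from WT LICs (2.47-fold, adjusted p = 0.0193) and 1.06 from LSK cells (adjusted p = 0.0198). A second Bmi1 probe set differed by 1.37 from WT LICs. The call against WT LICs was lost without the first WT LIC array (adjusted p = 0.0706) or either knockout array (0.0594 and 0.118), and with only the 2 LIC groups fitted (0.0898). That against LSK cells was lost without any 1 array of these groups (up to 0.111).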

How the data were processed

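RNA was amplified by single-primer isothermal amplification and biotin-labelled before hybridisation, per the labels' protocols. The deposited values are linear intensity values between 1.94 and 19343.1, made by the authors with RMA per the submitters' processing notes; no later step is recorded there. They had been taken for log2 values at first. They were turned into log2 without a pseudocount, the test staying as designed. Of 22690 probe sets, 64 controls were left out, and 20380 of the others had 1 symbol, 691 several and 1555 none listed. Symbols came from GEO's platform annotation, 20351 of them found in RefSeq. A gene was represented by its brightest probe set (mean of 8 arrays), and no dim gene was removed. Level was not compared between probe sets of different genes.

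The 3 groups were fitted together with lmFit and eBayes of limma 3.58.1 (R 4.3.3), leaving 5 residual degrees of freedom, with 2-sided tests and Benjamini-Hochberg adjustment over 12393 genes. The fit was tested on simulated data. Background was 4.01, the mean of the brightest of 27 bacterial controls without added RNA, and a group mean no higher than that gives a fold as a bound. Array number limits precision, and p-values measure the spread between the samples, whose separate animals are not described. Arrays were not paired by replicate number in the main fit. Same-numbered deviations correlated between -0.05 and 0.14, and those of different number between -0.14 and 0.095. The highest was that of WT LIC and knockout replicate 1. With 2 or 3 arrays a group such correlations cannot decide whether arrays were paired. Named genes were all members, Ezh2, up to 4 called genes a list and comparison (with none called, the 2 of smallest p), the 3 genes most like Bcl6 and, after values were seen, called list genes of knockout LICs against LSK cells. Alternatives are given further on. Exact permutation tests were not used, since so few arrays cannot pass the threshold. The members and lists were chosen with earlier results of these data known.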

Additional observations from a re-analysis of the deposited data

How the results depend on the processing

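Among the 7 genes, the count called for WT LICs against LSK cells went from 0 to 1 with genes above the 40th percentile, a trended robust prior or array weights (Bcl6 each time), and lay between 0 and 2 with 1 array left out. For knockout LICs against LSK cells it went to 1 with these settings and with only the 2 groups compared. For knockout against WT LICs it was 0 under all settings tried. Called genes for WT LICs against LSK cells numbered 917 with array weights, 252 with the replicate block and 176 to 643 with 1 array left out, against 424. Median centring shifted that comparison by 0.11 and moved the higher calls from 37.0% to 54.2% of all calls, and from 46.5% to 59.8% for knockout LICs against LSK cells. For knockout against WT LICs the count was 32 above the 40th percentile, 119 with array weights, 35 with only the 2 groups, 36 with the replicate block and 25 to 146 with 1 array left out, against 79. For knockout LICs against LSK cells it was 147 with the replicate block and 118 to 225 with 1 array left out, against 430. The replicate block called no member, as in the main fit. It removed the calls of Bmi1 for knockout LICs against WT LICs (adjusted p = 0.1) and against LSK cells (0.0775). For knockout LICs against LSK cells it also removed those of Fbxo32 (0.0829), Alox5ap (0.0915) and Lrp5 (0.0632). With only the 2 groups fitted, Fbxo32 (0.071) and Alox5ap (0.0691) lost that call as well. The cause was not tested in any of these, beyond fewer arrays or genes.

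Signs turned for small differences. For WT LICs against LSK cells, Ctnnb1 went to 0.046 with median centring, with a range of -0.13 to 0.024 with 1 array left out, Blk ranged from -0.45 to 0.40, and Lta4h went to -0.089 with the mean of all probe sets. For knockout against WT LICs, Bcl6 went to 0.19 with array weights (-0.69 to 0.25 with 1 array left out), Msr1 to 0.071 with the mean of probe sets and 0.048 with array weights (-0.079 to 0.10), Foxo3 ranged from -0.029 to 0.28 and Pml from -0.18 to 0.32. For knockout LICs against LSK cells, Blk ranged from -0.10 to 0.75 and Pml from -0.43 to 0.068. Signal over background limits Msr1, Blk and many Hedgehog genes. Where a knockout array was left out, the lone array was assumed to vary like the other groups.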
